A study of Mus musculus with 17 samples.

Results

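Germinal centre (GC) B cells that still carried IgM or IgD were compared with class-switched GC B cells of the same lymph nodes, in 8 mice taken 10 days after immunization without further treatment. The cells were chosen by the constant region of their heavy-chain transcript. A cell was kept when it had at least 200 detected genes, under 10% mitochondrial UMIs (unique molecular identifiers, 1 per captured transcript) and exactly 1 productive heavy-chain contig, the assembled antibody transcript of a cell. It was called unswitched when that contig named IgM or IgD and switched when it named any other constant region. This gave 2929 cells, 1528 unswitched and 1401 switched, of 69340 cell barcodes in the series and of 34657 barcodes in the 2 time-course pools from which they came.

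The recipients were CD45.1/1 mice primed with ovalbumin in alum, given B cells carrying B1-8hi, a knock-in heavy chain that with a lambda light chain binds the hapten NP, and then immunized in the footpad with NP-OVA. In the study's model the donor cells were a mixture of cells that express DEC-205 and carry a doxycycline-sensitive H2B-mCherry division reporter driven through Vav-tTA, and Ly75-/- cells that lack DEC-205. The study describes the time-course cells as DEC-205-positive, while the labels give only GC B cells. GC B cells were sorted from the draining popliteal nodes, marked with hashtag antibodies, pooled and sequenced with 5′ single-cell chemistry. Of the 8 untreated day 10 mice, 5 (M18 to M22) were in the first pool and 3 (D1 to D3) in the second. The same pools held 9 mice taken at day 7, and 7 day 10 mice that had received anti-DEC-OVA, an antibody that delivers ovalbumin to DEC-205 on B cells, at day 7. These served for comparison, except for 1 treated mouse with 8 unswitched and 101 switched cells, under the minimum of 10 cells per class. The transferred cells started from 1 rearranged heavy chain, which limits them as a model of a polyclonal response, and the B1-8hi pairing was found in 2692 of the 2929 cells compared (91.9%). The rule did not require it, and it was not found in the remaining 237 cells.

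Class switching replaces the constant region of the heavy chain by joining 2 repetitive switch regions, and leaves the variable region, and so the specificity for antigen, in place. Naive B cells express IgM and IgD from 1 primary transcript by splicing, and IgG1 is the isotype that IL-4 of T helper cells favours in mice. IgG has a longer cytoplasmic tail than IgM, with its own signalling motif. In a GC the cells divide and mutate in the dark zone and are selected in the light zone by capture of antigen and T cell help, and the same cells may leave as memory B cells or plasma cells.

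Most cells of both classes carried the same starting variable regions, whose heavy-chain CDR1, CDR2 and CDR3 are given here because most of the changed bases described further on lie in them. They were read 5′ to 3′ from the contigs, as part of the most frequent sequence of the B1-8hi pairing at day 7. Capitals mark the bases that are among the 10 changed most often over the whole heavy chain at day 10. Positions count from 1 at the first base of framework 1.
Heavy CDR1, bases 76 to 96: ggctacaccttcaccaGCtac
Heavy CDR2, bases 154 to 171: gatcctaatagtggtgGt
Heavy CDR3, bases 286 to 330: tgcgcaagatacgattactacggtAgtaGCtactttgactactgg

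The switched share differed widely between the untreated day 10 mice. In the first pool it was 10.4% in M18 (38 of 365 cells), 56.9% in M19 (247 of 434), 67.4% in M20 (275 of 408), 23.2% in M21 (66 of 284) and 42.3% in M22 (152 of 359). In the second pool the switched cells were 46.9% of D1 (138 of 294), 37.8% of D2 (109 of 288) and 75.7% of D3 (376 of 497). The exact Clopper-Pearson 95% intervals were 7.47% to 14.0% in M18 and 71.6% to 79.4% in D3, so counting error does not cover the spread. The median was 44.6%. At day 7 the share ran from 78.5% to 86.3% in 9 mice (median 79.9%), above every untreated day 10 mouse, and in the 6 treated day 10 mice used from 48.9% to 95.2% (median 92.2%). These shares follow from the rule that chose the cells and are given without a test.

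**Figure D1:**
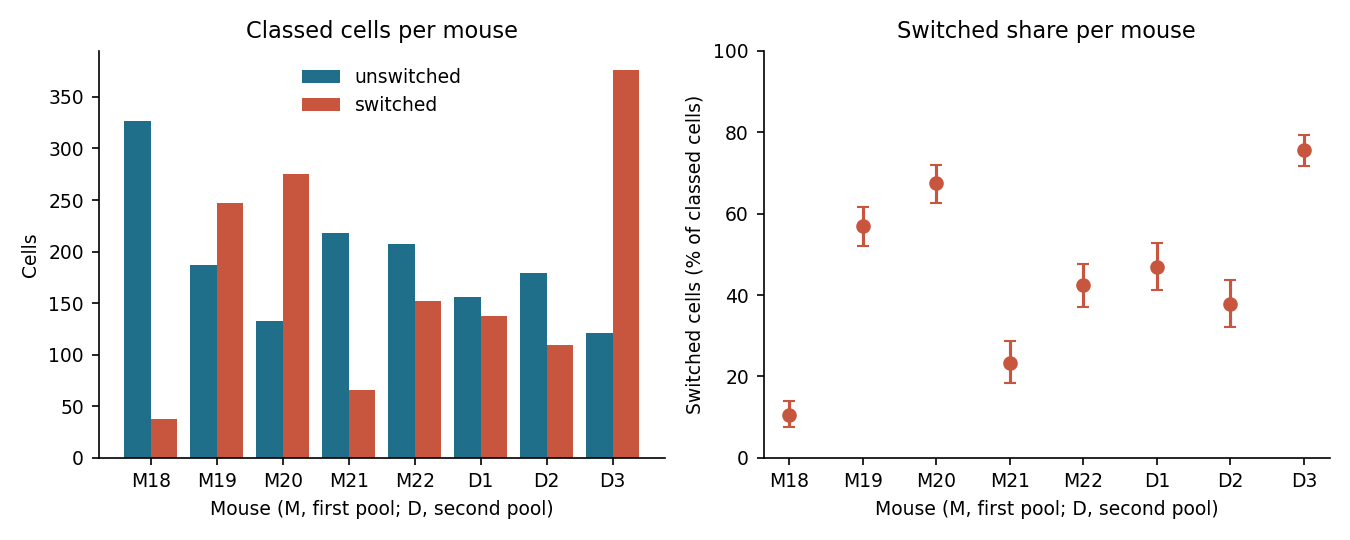
Unswitched and switched cells of each untreated day 10 mouse (left), and the percent of these cells that were switched (right). On the right, points are mice and bars exact Clopper-Pearson 95% intervals. The 8 mice spread from 10.4% to 75.7%.

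The switched cells were nearly all IgG1. IgG1 made up 1329 of the 1401 switched cells (94.9%), and the others were IgG2b in 30 cells, IgE in 24, IgG3 in 8, IgG2c in 7 and IgA in 3. By mouse the IgG1 share of switched cells ran from 76.3% to 97.6% (median 94.8%). Among unswitched cells 1486 (97.3%) had an IgM contig and 42 an IgD contig. The typical unswitched cell had more UMIs in its heavy-chain contig. The median per mouse was 25.5 to 87 UMIs (median of mice 69.5) against 19 to 42.5 UMIs (median of mice 34.75) in switched cells. Unswitched cells were higher in 8 of 8 mice (exact two-sided sign-flip permutation test over mice, p = 0.0078, the smallest that 8 mice allow). This p was not adjusted, and the UMIs come from the same contigs that chose the cells and named their class. The means over cells ran the other way for the main isotypes, at 103 UMIs for IgM and 49.1 for IgD against 119.8 for IgG1 and 344 for IgG2b.

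The 16 sums of UMIs, 1 for each mouse and class, held from 446504 to 3994430 UMIs, and the smallest, from the 38 switched cells of M18, carries the largest counting error. Of 5648 cells assigned to the 8 mice, 4947 passed the limits on genes and mitochondrial UMIs, 1977 of these had no heavy-chain contig and 41 had a contig without a constant region. More cells were lost in the second pool. There 661 of 3143 assigned cells had 10% or more mitochondrial UMIs, against 40 of 2505 in the first. No heavy-chain contig was found in 1384 of 2482 kept cells of the second pool and 593 of 2465 of the first. The cell with the fewest genes had 691, and the member nearest to the mitochondrial limit had 9.49%, against 10.2% in the nearest cell left out. No member barcode occurred in both pools. GC markers summed to 4141 to 5708 CPM (counts scaled to a common library size) in unswitched and 4372 to 5923 CPM in switched cells. All sums of markers were scaled without TMM, and the CPM of single genes further on with TMM. T cell markers summed to 88.9 to 138 CPM in unswitched and 71.4 to 106 CPM in switched cells, most of it from Lck, with Cd3e, Cd8a, Icos, Il7r and Bcl11b at 0 throughout. Myeloid and dendritic markers summed to 162 to 230.3 CPM against 204 to 287 CPM, lower in unswitched cells in 8 of 8 mice, most of it from Cst3 (log2 -0.42, adjusted p = 9.8e-05), with S100a8, Cd14 and Siglech at 0. The part of these markers in the results was not tested. Ly75, the gene of DEC-205, did not pass the test between the classes (log2 difference 0.20 ± 0.13, SE, edgeR adjusted p = 0.5, higher in unswitched cells in 5 of 8 mice).

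The first question was which genes differed between the classes within a mouse. Of 8556 genes tested, 308 passed an adjusted p of 0.05 in edgeR's quasi-likelihood test with mouse as a block (3.6% of genes), 124 of them higher (1.45%) and 184 lower (2.15%) in unswitched cells. The differences were mostly small, with a median of 1.29-fold, over 1.5-fold in 75 genes and over 2-fold in 9. In 173 of the 308 genes all 8 mice had the same direction, while the values of the classes did not overlap over mice in 13 of the 308 and in 14 of all genes tested (0.164%). The median log2 difference over all genes was 0.005. A sum per class does not tell a higher share of expressing cells from more transcript per cell. In the 5 mice of the first pool alone 153 genes passed, 50 higher and 103 lower, and in the 3 mice of the second pool 194 passed, 124 higher and 70 lower, so the balance of directions turned between the pools. Of the 308 genes, 121 passed in the first pool alone and 100 in the second. All 308 had the same direction in the first pool and 303 of 304 in the second, which is not independent of their choice in these mice (80.7% and 74.2% of the genes that had not passed). With the B1-8hi pairing required, which leaves out cells of other pairings that were most frequent among the unswitched cells of D3, 371 genes passed and all 308 had the same direction. The gene just inside the threshold had an adjusted p of 0.0498 and the gene just outside 0.0502.

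**Figure D2:**
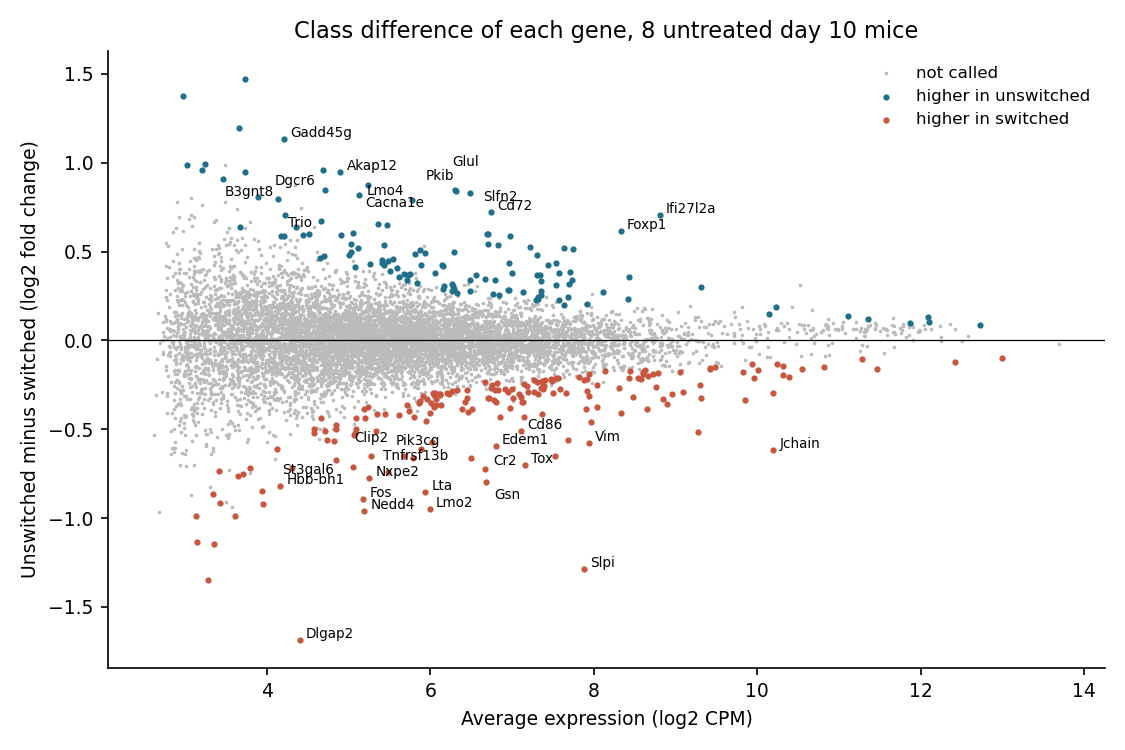
Log2 difference between unswitched and switched cells of 8556 genes (vertical) against average log2 CPM (horizontal). Blue points passed the test higher in unswitched cells (124 genes) and red points higher in switched cells (184), and the named genes include Foxp1 and Glul above and Lmo2, Nedd4 and Jchain below 0.

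Among the genes higher in unswitched cells was Foxp1 (ENSMUSG00000030067, chr6:98902299-99499685, minus strand in the GRCm39 annotation of GENCODE vM39), a forkhead transcription factor of B cell development that the dark-zone list holds. Foxp1 measured 330.0 to 456 CPM in unswitched cells (median 373) and 184 to 321 CPM in switched cells (median 256). No switched sample reached the lowest unswitched sample (log2 difference 0.62 ± 0.06, SE, edgeR adjusted p = 3.6e-07). Lmo4 (ENSMUSG00000028266, chr3:143894143-143911774, minus strand), a LIM-domain adaptor of transcription complexes, was also separate, with 50.3 to 84.9 CPM in unswitched cells (median 67.8) and 27.0 to 47.6 CPM in switched cells (median 37.6) (log2 difference 0.79 ± 0.11, SE, edgeR adjusted p = 5.6e-05). Dgcr6, a gene of the region deleted in DiGeorge syndrome, did not overlap either, at 24.9 to 37.2 CPM in unswitched cells (median 32.2) and 11.2 to 24.2 CPM in switched cells (median 17.8) (log2 difference 0.85 ± 0.14, SE, edgeR adjusted p = 0.00041). In the second pool alone Lmo4 (0.37) and Dgcr6 (0.63) did not pass, while both passed in the first (1.08 and 0.99).

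Glul, glutamine synthetase, measured 57.8 to 145 CPM in unswitched cells (median 102) and 36.5 to 70.5 CPM in switched cells (median 60.9), and every mouse was higher in unswitched cells (log2 difference 0.84 ± 0.08, SE, edgeR adjusted p = 3.7e-07). Slfn2, a Schlafen protein of lymphocyte quiescence, was 69.3 to 186 CPM in unswitched cells (median 108) and 34.6 to 88.3 CPM in switched cells (median 58.2) (log2 difference 0.83 ± 0.09, SE, edgeR adjusted p = 1.3e-06). The classes of both genes overlapped over mice, while all 8 mice had the same direction. Pkib, an inhibitor of protein kinase A, had 71.4 to 142 CPM in unswitched cells (median 96.8) and 34.0 to 82.2 CPM in switched cells (median 53.3) (log2 difference 0.84 ± 0.09, SE, edgeR adjusted p = 2e-06), and Akap12, a scaffold that anchors this kinase, 24.2 to 57.5 CPM in unswitched cells (median 32.8) and 11.8 to 28.5 CPM in switched cells (median 20.4) (log2 difference 0.95 ± 0.17, SE, edgeR adjusted p = 0.0015).

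The other large rises took in varied functions. Gadd45g, a stress-induced growth arrest gene, had the largest of the 12, 10.5 to 37.7 CPM in unswitched cells (median 24.9) and 4.50 to 30.7 CPM in switched cells (median 9.27) (log2 difference 1.13 ± 0.21, SE, edgeR adjusted p = 0.0015), with a log2 difference of 1.81 at day 7 and 1.63 in treated mice. Ifi27l2a, an interferon-induced gene, was higher by log2 0.71, adjusted p = 8.2e-06. Cacna1e, a voltage-gated calcium channel subunit (log2 0.82, adjusted p = 0.00015), B3gnt8, a glycosyltransferase that extends N-glycans (log2 0.80, adjusted p = 0.0053), and Trio, an exchange factor for small GTPases (log2 0.67, adjusted p = 0.0043), completed the group. Gadd45g (0.74) and Trio (0.60) did not pass in the first pool alone, Akap12 (0.53) not in the second and B3gnt8 in neither. All 12 had the same direction in each of the 8 mice, which the rule for naming them required.

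**Figure D3:**
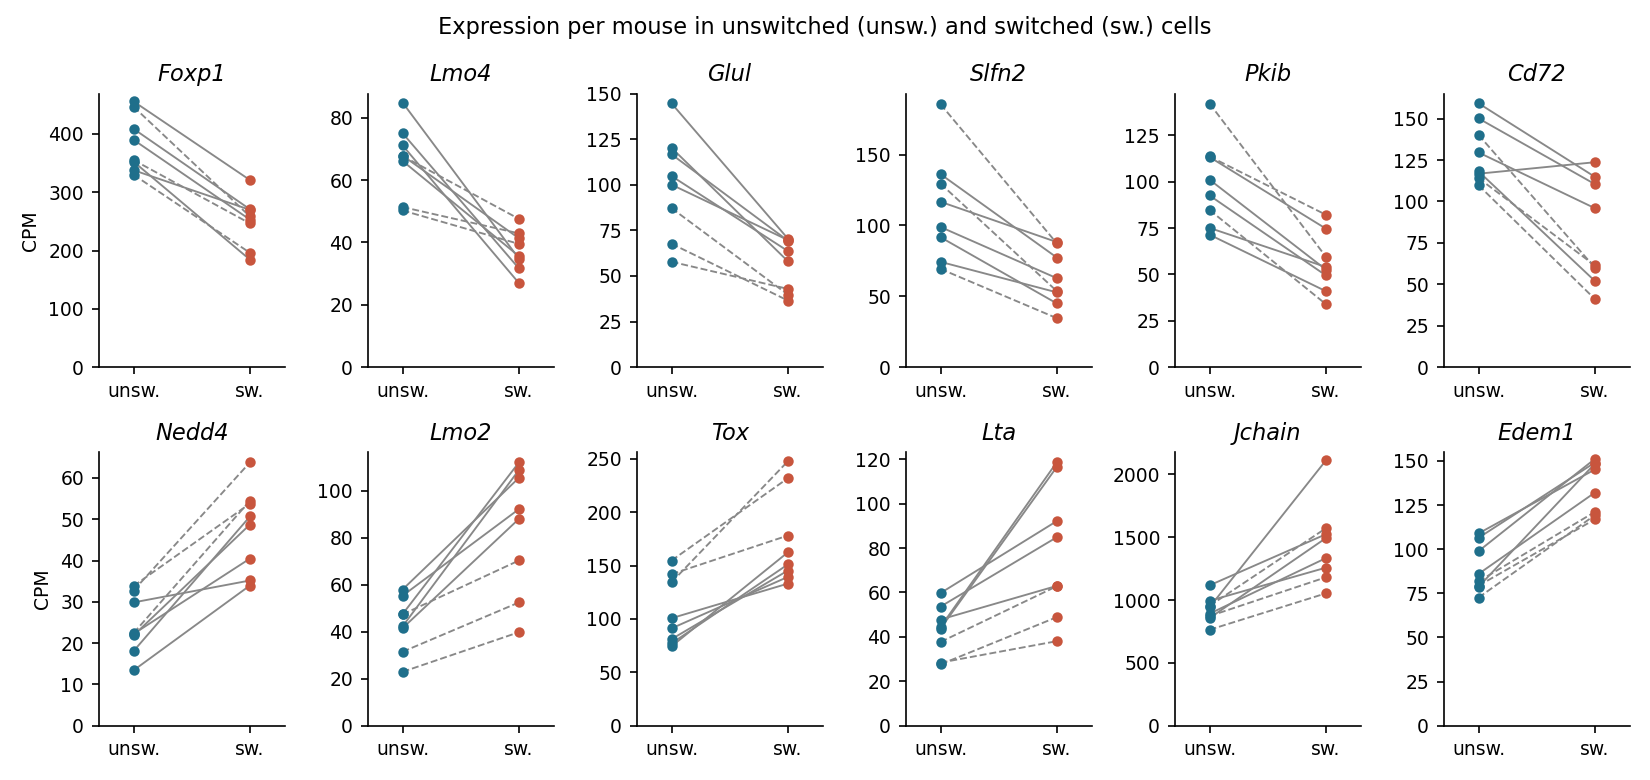
CPM of genes in unswitched and switched cells of each mouse, with a line joining the sums of 1 mouse, solid for the first pool and dashed for the second. The lines of Foxp1 and Lmo4 fall and those of Lmo2, Nedd4, Edem1 and Jchain rise from unswitched to switched cells in all 8 mice.

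Genes lower in unswitched cells, hence higher in switched cells, included Lmo2 (ENSMUSG00000032698, chr2:103788331-103812355, plus strand), a LIM-only bridging factor that marks GC B cells, at 22.9 to 58.0 CPM in unswitched cells (median 44.8) and 39.8 to 112 CPM in switched cells (median 90.1) (log2 difference -0.95 ± 0.09, SE, edgeR adjusted p = 3.6e-07). Nedd4 (ENSMUSG00000032216, chr9:72569596-72657134, plus strand), an E3 ubiquitin ligase, was separate between the classes, with 13.4 to 33.8 CPM in unswitched cells (median 22.3) and 34.0 to 63.8 CPM in switched cells (median 49.7) (log2 difference -0.96 ± 0.12, SE, edgeR adjusted p = 1.3e-05). Edem1 (ENSMUSG00000030104, chr6:108805457-108838955, plus strand), which directs misfolded glycoproteins from the endoplasmic reticulum to degradation, did not overlap either, at 72.5 to 109 CPM in unswitched cells (median 83.8) and 117 to 151 CPM in switched cells (median 139) (log2 difference -0.59 ± 0.07, SE, edgeR adjusted p = 1.9e-06). Clip2, a linker of membranes to microtubules, was the other of the 12 largest falls without overlap, at 25.1 to 36.3 CPM in unswitched cells (median 27.9) and 37.2 to 56.4 CPM in switched cells (median 44.1) (log2 difference -0.65 ± 0.11, SE, edgeR adjusted p = 0.00034).

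Fos, a subunit of the AP-1 transcription factor, measured 12.5 to 35.7 CPM in unswitched cells (median 26.5) and 27.0 to 70.5 CPM in switched cells (median 46.5) (log2 difference -0.89 ± 0.12, SE, edgeR adjusted p = 4.3e-05), and Lta, lymphotoxin alpha, 27.6 to 59.7 CPM in unswitched cells (median 44.1) and 38.1 to 119 CPM in switched cells (median 73.9) (log2 difference -0.85 ± 0.11, SE, edgeR adjusted p = 1.1e-05). Both were lower in unswitched cells in every mouse. Tox, a chromatin-binding HMG-box factor (log2 -0.70, adjusted p = 1.9e-06), Gsn, the actin-severing protein gelsolin (log2 -0.80, adjusted p = 1.9e-06), St3gal6, a sialyltransferase (log2 -0.67, adjusted p = 0.0063), and Pik3cg, a catalytic subunit of PI3 kinase (log2 -0.66, adjusted p = 8.4e-05), were lower as well. Tnfrsf13b encodes TACI, a receptor for BAFF and APRIL, and had 52.3 to 87.2 CPM in unswitched cells (median 69.4) and 62.7 to 142 CPM in switched cells (median 110.3) (log2 difference -0.66 ± 0.08, SE, edgeR adjusted p = 9.1e-06). Hbb-bh1, an embryonic beta-like globin (log2 -0.82, adjusted p = 0.002), and Nxpe2 (log2 -0.77, adjusted p = 0.00016) were the remaining members of the 12. Fos (-0.55), St3gal6 (-0.47) and Hbb-bh1 (-0.96) did not pass in the second pool alone. Of the 24 largest rises and falls, 21 passed in the first pool alone and 17 in the second.

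Outside the rule for naming genes, and chosen after their values were seen, Dlgap2 and Slpi had the largest falls by size among genes of average log2 CPM above 4. Slpi, a secreted inhibitor of proteases, measured 33.4 to 449 CPM in unswitched cells (median 95.4) and 77.0 to 701 CPM in switched cells (median 295), with wide and overlapping ranges, and was lower in unswitched cells in 7 of 8 mice (log2 difference -1.28 ± 0.33, SE, edgeR adjusted p = 0.026). Dlgap2, a scaffold protein of the postsynaptic density, measured 1.93 to 18.9 CPM in unswitched cells (median 8.21) and 6.75 to 40.6 CPM in switched cells (median 30.01), also lower in 7 of 8 mice (log2 difference -1.68 ± 0.22, SE, edgeR adjusted p = 2.1e-05). Ephx1, an epoxide hydrolase, had the largest rise and was higher in unswitched cells in 8 of 8 mice, at 8.97 to 29.3 CPM in unswitched cells (median 19.6) and 2.25 to 11.04 CPM in switched cells (median 6.71) (log2 difference 1.47 ± 0.23, SE, edgeR adjusted p = 0.00024), but its average log2 CPM was 3.73. Of the 13 genes that passed without overlap of the classes, the 6 that no rule named were Rras2, a Ras-related GTPase and higher in unswitched cells (log2 0.38), and, all lower, the integrin subunit Itgav (-0.42), the GTPase regulator Abr (-0.61), the Arf GTPase-activating protein Asap1 (-0.46), the peroxisomal protease Lonp2 (-0.30) and the quinone reductase Cryz (-0.92).

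Of 30 B cell receptor signalling and co-receptor genes, 3 were higher and 9 lower in unswitched cells, 40.0% against 3.6% of all genes, and the median log2 difference was -0.07 against 0.005 over all genes. Cd72, an inhibitory co-receptor, had the largest rise. Cd72 measured 109.8 to 159 CPM in unswitched cells (median 124) and 41.1 to 124 CPM in switched cells (median 78.7), higher in unswitched cells in 7 of 8 mice (log2 difference 0.72 ± 0.11, SE, edgeR adjusted p = 0.0001). The kinase Syk (log2 0.23, adjusted p = 0.0034) and Nfatc1, a transcription factor downstream of calcium (log2 0.28, adjusted p = 0.014), were higher too. Among those lower were Pik3ap1, an adaptor of PI3 kinase (log2 -0.31, adjusted p = 0.00063), the phosphatase Ptpn6 (log2 -0.22, adjusted p = 0.026), Cd37, Cd22, Ptprc, Inpp5d and Grb2. Plcg2, a phospholipase that mobilizes calcium (log2 -0.28, adjusted p = 0.0045), was the member whose classes did not overlap over the 8 mice. Cd79a and Cd79b, the receptor's signalling subunits, did not pass, at log2 0.03 and 0.09. With DESeq2 8 of the 30 passed, in the first pool alone 7 and in the second alone 1.

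Of 19 light-zone activation genes tested, 3 were higher and 1 lower in unswitched cells, 21.1% against 3.6% of all genes, and 17 of the 19 log2 differences were above 0 (51.4% of all genes were), with a median of 0.30. The pools differed in this, as 11 of 19 passed and 18 were above 0 in the second pool, against 1 and 12 in the first. A light-zone score per cell, from 23 list members in cells thinned to 4162 UMIs, was higher in unswitched cells in 6 of 8 mice. Its mean difference was 0.011 (exact sign-flip permutation test, Benjamini-Hochberg adjusted p = 0.77). Il4i1, an amino acid oxidase induced by IL-4 (log2 0.54, adjusted p = 0.0091), the inhibitor of NF-kappaB Nfkbia (log2 0.34, adjusted p = 0.0093) and the early activation antigen Cd69 (log2 0.32, adjusted p = 0.039) were higher, and the co-stimulator Cd86 (log2 -0.51, adjusted p = 1.3e-05) was lower. Myc, which marks recently selected cells, had a log2 difference of 0.46 that did not pass (edgeR adjusted p = 0.07), and neither did Cd83 (0.14). Of 13 dark-zone genes, Foxp1 and Foxo1 (log2 0.20, adjusted p = 0.041) were higher and Hmces, which protects abasic sites in DNA (log2 -0.36, adjusted p = 0.00063), was lower, 23.1% against 3.6% of all genes, and the median was -0.05. Cxcr4, the dark-zone chemokine receptor, did not pass (0.11).

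Of 20 genes of GC B cell identity, 1 was higher and 4 were lower, 25.0% against 3.6% of all genes. Rgs13, a brake on G protein signalling (log2 0.37, adjusted p = 0.033), was higher and Nuggc, a GC nuclear GTPase (log2 -0.39, adjusted p = 0.00024), Basp1, Rassf6 and Mef2c were lower, while Bcl6, the master regulator of GC B cells, did not pass (-0.10). Of 22 positioning and migration genes, Rgs13 was higher and the integrin subunit Itgb2 (log2 -0.32, adjusted p = 0.0073) and the actin regulator Coro1a lower, 13.6% against 3.6% of all genes.

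Of 20 plasma cell differentiation genes, 2 were lower in unswitched cells, Jchain and Edem1, 10% against 3.6% of all genes. The pools differed, with 5 of 20 members above 0, a median of -0.18 and 3 past the test in the first pool, against 13 of 19, 0.07 and 4 in the second. Jchain (ENSMUSG00000067149, chr5:88667668-88675750, minus strand) encodes the chain that joins IgM and IgA into polymers. Jchain measured 763 to 1117 CPM in unswitched cells (median 917) and 1053 to 2111 CPM in switched cells (median 1413), and all 8 mice were lower in unswitched cells (log2 difference -0.62 ± 0.06, SE, edgeR adjusted p = 3.6e-07). Plasma cell markers as a whole, most of whose sum was Jchain, added up to 1331 to 1705 CPM in unswitched and 1692 to 2871 CPM in switched cells, lower in unswitched cells in 8 of 8 mice, and their part in the other differences was not tested. Of 21 memory and naive B cell genes 3 were higher and 3 lower, 28.6% against 3.6% of all genes, and the pools differed. In the first pool 7 of 21 were above 0 with a median of -0.17 and 5 passed. In the second 14 of 18 were above 0 with a median of 0.82 and 12 passed. Over both pools 11 of 21 were above 0, with a median of 0.04. With the B1-8hi pairing only, over both pools, 8 of 18 were above 0, with a median of -0.02, and 7 passed. In the unswitched cells of D3, Gpr183, a receptor for oxysterols, was at 59.0 CPM against 16.02 in its switched cells and the complement regulator Cd55 at 63.8 against 11.5, both the highest of the 16 sums. Other members varied in D3. Klf2 (56.1 against 14.0 CPM) and Fcer2a (363 against 224) were higher in its unswitched cells without being the highest sums. Cr2 (110.2 against 117), Tnfrsf13b (86.0 against 106) and Vim (224 against 247) were lower. Ms4a4c (log2 0.96, adjusted p = 0.042), Ly6d (log2 0.53, adjusted p = 0.0086) and Nt5e, the ectonucleotidase CD73 (log2 0.43, adjusted p = 0.027), were higher. Ms4a4c measured 129 CPM in the unswitched cells of D3 and 12.8 to 29.3 CPM in those of the other mice, and it did not pass without D3 (log2 0.28, edgeR adjusted p = 0.43), in the first pool alone (0.34, adjusted p = 0.44) or with the B1-8hi pairing only (0.58, adjusted p = 0.075). Ly6d was 0.27 in the first pool (edgeR adjusted p = 0.22) and 0.96 in the second, and Nt5e passed in neither pool alone. Cr2, the complement receptor CD21, measured 50.3 to 110.2 CPM in unswitched cells (median 73.4) and 74.2 to 183 CPM in switched cells (median 116) and was lower in unswitched cells in 7 of 8 mice (log2 difference -0.73 ± 0.11, SE, edgeR adjusted p = 0.00022). Tnfrsf13b and the intermediate filament gene Vim (log2 -0.58, adjusted p = 5.1e-05) were lower too. The summed naive and memory markers overlapped, at 281 to 797 CPM against 262 to 865 CPM.

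IL-4 and IL-21 receptor and response genes had 2 of 15 members higher, Il4i1 and Nfil3 (log2 0.64, adjusted p = 0.0496), a transcription factor induced by IL-4, and none lower, 13.3% against 3.6% of all genes. The number that passed was 0 with DESeq2, without the block or in the first pool alone, and 4 in the second pool alone. Of 23 interferon-stimulated genes 2 were higher (Ifi27l2a and Slfn2) and 1 lower (Irf1, log2 -0.43, adjusted p = 0.0479), 13.0% against 3.6% of all genes, and the values were above 0 in 15 members, against 51.4% of all genes. The pools differed, with 4 of 22 above 0 in the first pool and 20 of 22 in the second. None of 16 MHC class II and 21 MHC class I presentation genes passed in the edgeR test of all cells or in DESeq2, while 2 and 3 had an unadjusted p under 0.05. After thinning, 5 of 15 class II genes and 1 class I gene passed in edgeR, without the block or with the B1-8hi pairing only 1 class II gene each, and in the second pool alone 2 class I genes.

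The log2 differences of all 75 ribosomal protein genes tested were above 0, from 0.007 to 0.14 with a median of 0.07, and 5 genes passed as higher in unswitched cells, among them Rplp2, Rpl13 and Rpl12, a share of 6.67% against 3.6% of all genes. The number that passed was 1 with DESeq2, 0 in either pool alone, 11 after thinning and 19 with the B1-8hi pairing only. The count above 0 was 75 of 75 with RLE scaling, 73 after thinning every cell to the same number of UMIs and 73 in the first pool alone. By comparison 51.4% of all genes were above 0. Of 60 oxidative phosphorylation genes none passed in the edgeR test of all cells or in DESeq2 (7 with an unadjusted p under 0.05). After thinning 1 passed. The glycolysis list had 1 of 20 members past the test, Mif (log2 0.30, adjusted p = 0.0066), higher in unswitched cells. Mif encodes a cytokine and not a glycolytic enzyme, and the share was 5.0% against 3.6% of all genes. Of 16 genes of the Bcl-2 family and death receptors, the pro-apoptotic Bcl2l11 (log2 0.48, adjusted p = 0.039) was higher. Of 19 base excision and mismatch repair genes, Hmces and Parp1 (log2 -0.17, adjusted p = 0.042) were lower (10.5% against 3.6% of all genes), and Parp1, which both repair lists hold, was also the 1 of 25 end-joining genes that passed, a share near the 3.6% of all genes. Of 29 S phase genes none passed in the edgeR test of all cells or in DESeq2 (6 with an unadjusted p under 0.05), and 26 were above 0 with a median of 0.09. After thinning 4 passed with a median of 0.18, and with the B1-8hi pairing only 2 passed. The pools differed. In the first pool alone 1 S phase gene passed and 27 of 29 were above 0, with a median of 0.17. In the second alone 0 passed and 16 of 29 were above 0, with a median of 0.003. Of 31 G2-M genes Cdc20 (log2 -0.27, adjusted p = 0.018) was lower, a share near the background, and it did not pass with DESeq2, without the block, after thinning or in either pool alone. The G2-M values leaned lower in unswitched cells, with 8 of 31 above 0 and a median of -0.06, 11 of 31 above 0 in the first pool and 2 of 31 in the second.

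Several of these list members did not pass when 1 mouse was left out, most often M19 or M20. They were Cd22, Ptpn6, Inpp5d, Grb2, Cd69, Foxo1, Cdc20, Rgs13, Mef2c, Basp1, Rassf6, Nt5e, Ms4a4c, Coro1a, Nfil3, Irf1, Rplp2, Bcl2l11 and Parp1, with edgeR adjusted p-values of up to 0.24 apart from Ms4a4c. The number of mice that each lost the call when left out ran from 1 for Coro1a to 7 for Parp1. It was 6 for Inpp5d, Cd69, Nfil3 and Irf1. With DESeq2 the number that passed was 2 of the light-zone, 2 of the dark-zone, 3 of the GC identity, 3 of the memory and naive, 1 of the positioning, 2 of the interferon, 1 of the base excision and mismatch repair and 0 of the Bcl-2 family genes.

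Whether the class difference was particular to untreated day 10 was examined against day 7 and against treated day 10, whose mice are separate animals. At day 7, 719 of 8730 genes passed (8.24%), and of the 308 genes that passed at untreated day 10, 302 had the same direction (98.1%, against 64.8% of the genes that had not passed) and 224 passed (72.7%). In treated day 10 mice, 179 of 8933 genes passed (2%), 298 of the 308 had the same direction (96.8%, against 60.0%) and 94 passed (30.5%). The median size of the 308 differences was 0.372 on the log2 scale at untreated day 10, where the genes were picked, and 0.340 and 0.336 in the other groups. On the log2 scale, Foxp1 differed by 0.55 at day 7 and 0.83 in treated mice and Lmo2 by -0.93 at day 7 and -1.04 in treated mice. Nedd4 was at -0.67 at day 7 and -0.66 in treated mice, where it did not pass (edgeR adjusted p = 0.0998), and Jchain at -0.19 at day 7 and -0.38 in treated mice, passing in treated mice but not at day 7 (edgeR adjusted p = 0.21).

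The difference between groups was tested as an interaction of class and group. No gene passed in edgeR against day 7 (0 of 8730, 0%, 435 with an unadjusted p under 0.05) or against treated day 10 (0 of 8933, 0%, 499 with an unadjusted p under 0.05) among genes past the filter on low counts and over both pools. Without that filter 25 and 33 genes passed, and in the first pool alone 0 and 4. Both tests share the untreated day 10 mice.

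**Figure D4:**
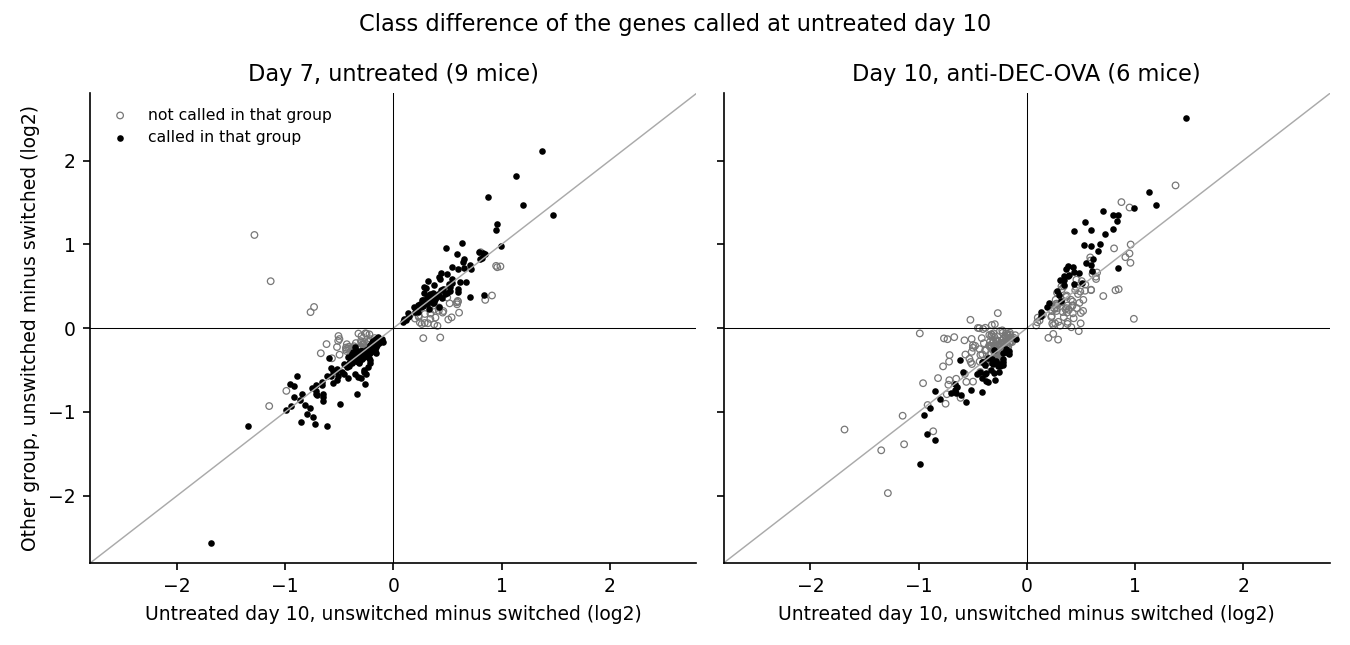
Log2 difference between unswitched and switched cells of the 308 genes at untreated day 10 (horizontal) against the same genes in day 7 mice and in treated day 10 mice (vertical). Most points lie in the quadrants of equal sign, 302 and 298 of 308.

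Depth and cell cycle calls were compared next. Median UMIs per cell were 7894 ± 875 (SD over 8 mice) in unswitched and 7913 ± 1023 in switched cells, and median genes 2857 ± 192 and 2860.1 ± 235. S phase calls, in cells thinned to 4162 UMIs, were 30.6% ± 4.4 and 26.9% ± 5.0, higher in unswitched cells in 6 of 8 mice, and G2-M calls 34.7% ± 9.8 and 33.4% ± 11.2. The remaining cells, called G1, were 34.6% ± 11.4 and 39.7% ± 14.1, lower in unswitched cells in 6 of 8 mice (exact sign-flip permutation p = 0.031, outside the family of measures adjusted together). Thinning left out 159 unswitched and 134 switched cells of fewer UMIs, and without it the differences in percentage points were 2.35 for S phase, against 3.75 with it, and -0.21 for G2-M, against 1.33. The B1-8hi pairing, the knock-in heavy chain with its lambda partner, was found in 89.0% ± 9.1 of unswitched and 93.6% ± 2.8 of switched cells. In the family of 8 measures compared within mice, with mitochondrial percent and light-zone and dark-zone scores beside the S and G2-M calls, depth, genes and pairing, the exact sign-flip permutation test with Benjamini-Hochberg adjustment gave adjusted p-values of 0.62 or more.

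Somatic mutations were counted against the starting heavy (361 bases) and light (328 bases) chains in cells of the B1-8hi pairing, 1376 unswitched and 1306 switched. The mean number per cell was 3.45 to 4.54 over mice in unswitched cells (median 3.82, mean 3.87 ± 0.34, SD, n = 8 mice) and 3.26 to 4.24 in switched cells (median 4.04, mean 3.91 ± 0.35). The difference was -0.04 (SD 0.56 over mice), higher in unswitched cells in 4 of 8 mice and from -0.79 to 0.82, and the exact sign-flip permutation test gave p = 0.94. In the first pool it was 0.17 and in the second -0.38. Heavy chains held 2.79 and 2.8 mutations and light chains 1.08 and 1.11, and heavy V-segment replacements were 1.58 and 1.59 per cell. Cells without any mutation were 7.46% ± 1.58 of unswitched and 9.37% ± 4.10 of switched cells (exact sign-flip permutation p = 0.34).

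**Figure D5:**
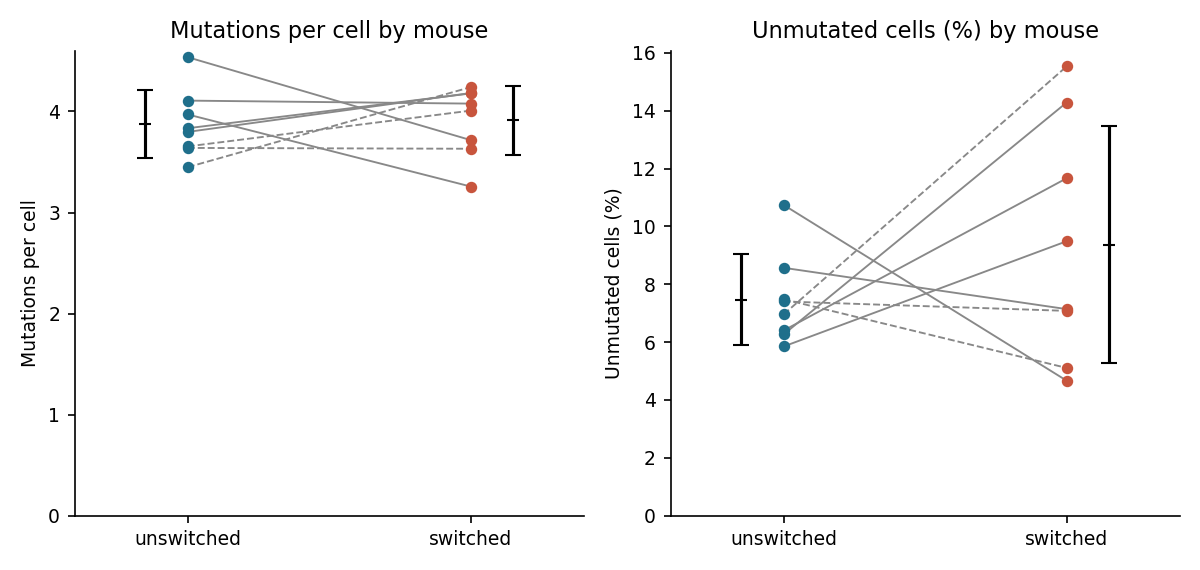
Mean mutations per cell over the 689 bases of both chains, in unswitched and switched cells of each mouse. Bars give the mean ± SD over 8 mice, 3.87 ± 0.34 and 3.91 ± 0.35.

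The mutations fell most densely in the CDRs of both classes. Per 100 bases of heavy chain there were 1.94 mutations in CDR1 of unswitched and 1.60 of switched cells, 1.42 and 2.10 in CDR2, and 1.28 and 1.44 in CDR3, against at most 0.78 in any framework. The bases changed most often were shared. A change at base 93, in the capitals of CDR1 and C93G in 240 of 323 changed cells, was carried by 14.0% ± 3.0 of unswitched and 10.1% ± 2.9 of switched cells, higher in 7 of 8 mice, and a change at base 315 in CDR3, C315T in 214 of 292, by 10.3% ± 1.8 and 12.2% ± 2.5. A change at base 197 in framework 3, G197A in 155 of 288, was carried by 11.05% ± 2.54 and 9.72% ± 4.01.

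Of 3 frequently changed bases in CDR2, base 163 was changed, A163C in 53 of 103 changed cells, in 3.56% ± 1.24 of unswitched and 3.89% ± 2.25 of switched cells, higher in unswitched cells in 4 of 8 mice. Base 170, the capital in the CDR2 line, was changed, G170A in 86 of 125, in 2.85% ± 1.06 of unswitched and 6.57% ± 2.68 of switched cells, higher in unswitched cells in 1 of 8 mice. Base 154, the first of CDR2, was changed, G154A in 96 of 103, in 0.77% ± 0.73 of unswitched (9 cells in 6 mice) and 6.63% ± 4.23 of switched cells (94 cells in 7 mice), again higher in unswitched cells in 1 of 8 mice. The 94 switched cells had 88 distinct heavy and light sequence pairs, and the 9 unswitched cells had 8. With 8 mice the smallest p of the exact test is 0.0078, which cannot pass adjustment over 361 bases, and these sites were picked after their values were seen, so no test is given. Counted within each mouse and added over mice, 23 sequences were found in both classes, covering 134 of 1376 unswitched and 149 of 1306 switched cells. The unmutated starting sequence was shared in all 8 mice and enters this count once per mouse. Among cells with at least 1 mutation the shared sequences, counted in the same way, were 15, in 35 of 1277 unswitched and 48 of 1205 switched cells.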

How the data were processed

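Untreated day 10 cells of 8 mice, and day 7 and treated day 10 cells of the same pools, were used. The authors deposited UMI counts per gene, hashtag and cell from CellRanger (8.0.1 in the file headers, 6.0.1 in the submitters' processing notes, genome build mm39), not normalized, and filtered V(D)J contigs. Here a cell went to a mouse when its hashtags above the HTODemux cutoffs (Seurat 5.3.0, positive quantile 0.99) were exactly those of that mouse. HTODemux's own calls of single cells and doublets were not used. UMIs were summed per mouse and class (at least 10 cells). Filtered sums were fitted with edgeR 4.0.16 (R 4.3.3), with TMM scaling and the mouse as a block. Both sums of a mouse come from the same animal, which is the pairing. Correlations of their deviations ran from -0.02 to 0.41. In 3 of 8 mice the unswitched sum correlated best with the switched sum of its own mouse. The 12 largest rises and falls past an adjusted p of 0.05, above an average log2 CPM of 4 and with 1 direction in all mice, were named, as were called members of 19 lists. Members and lists were chosen with earlier results of these data known. On simulated counts for this comparison (8556 genes), 100 of 100 genes at log2 1 and 81 of 100 at log2 0.5 were called, with 6 of 8356 unchanged genes. The changed genes were drawn only from those of average log2 CPM above 4, and no difference between mice was simulated. These rates therefore do not cover genes of lower counts. Heavy-chain locus genes were absent from the matrices used. Doublets within a mouse were not searched for. Intervals cover counting error only. Some named members of the lists are not reported here.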

Additional observations from a re-analysis of the deposited data

Results flagged for a closer look

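The share of unswitched cells with the B1-8hi pairing was 66.9% in mouse D3, against 88.3% to 94.2% in the other 7 untreated day 10 mice. The gap to the nearest mouse was 0.781 of the range of the 8 mice, past Dixon's 95% critical value. It was 1 of 43 groups of values examined, and chance alone flags about 1 in 20 groups.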

How the results depend on the processing

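All 308 genes kept their direction under every alternative in which they were measured, with the exception of 1 of 304 in the second pool alone. The count that passed was 483 without the filter on low counts, 124 with DESeq2 (46 higher, 78 lower), 153 in the first pool alone and 194 in the second alone, and 182 to 334 when 1 mouse was left out, lowest without M20 (182) and M19 (203). Without the replicate block for the mouse it was 294, and the mutation difference without the pairing gave an exact permutation p of 0.832. Other alternatives gave 280 to 411.

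The mutation difference changed sign in V segments alone (0.0596), with IgG1 cells only (0.0037) and in the first pool (0.167), and without M19 (0.00579), M22 (0.0116), D1 (0.0697) or D3 (0.00720), in a range from -0.161 to 0.0697 without single mice. Signs also changed for UMIs per cell with the B1-8hi pairing only (495), in the first pool (284.7) and without M19 (16), M21 (72.9), D1 (114) or D3 (232) (range -188 to 232), for genes per cell under the same settings (107, 35.8, 17.2, 24.4, 12.6 and 47.8, range -45.8 to 47.8), for mitochondrial percent in the first pool (-0.0185, and -0.0077 to 0.0465 without single mice), for the pairing share in the first pool (0.480), for the light-zone score in the first pool (-0.0079), for the dark-zone score in the second pool (-0.0071) and for G2-M calls without thinning (-0.210). S phase calls differed by 2.46 to 5.36 percentage points without single mice. Without M18 the difference was 5.36 (exact permutation p = 0.047, not adjusted over the 8 measures). The interaction gave 25 genes against day 7 and 33 against treated mice without the filter, and 4 against treated mice in the first pool alone (H2ac4, H1f5, H4c4 and H1f4). The median switched share was 42.3% to 46.9% without single mice. The causes were not tested. Library sizes that include heavy-chain genes were not run, since the matrices hold 0 of them. The smallest sums of UMIs limit what low genes can show.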
